A study of Mus musculus with 10 samples.

Results

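Osteocytes derived from mouse bone marrow mesenchymal stem cells (MSC) were compared after and before reprogramming, with 1 array a side. The level of each probe on the reprogrammed osteocyte array was set against its level on the differentiated osteocyte array, after the 2 arrays had been normalised to each other. A probe was included when its detection p-value, a rank against negative control beads, was under 0.01 on at least 1 of the 2 arrays. This kept 17707 of the 45281 probes on the array (39.1%), of which 15390 carried a single gene symbol and gave values for 9849 of the 19057 genes named on the array. At the edge of the rule, 764 probes lay inside with a lower detection p of 0.005 or more, and 465 lay outside with one under 0.015.

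The study hybridised 10 Illumina mouse arrays: 2 of undifferentiated MSC and 1 each of differentiated and reprogrammed adipocytes, chondrocytes and osteocytes, of in vivo derived osteocytes, and of in vivo derived osteocytes that had been treated. All cells were labelled as adult bone marrow MSC of C57BL/6J mice by origin. The labels named neither the differentiation medium, the reprogramming treatment nor the time of either, and gave no age, sex or number of mice. With 1 array a side, no difference within the osteocyte pair has an error or a test, and fewer cells of a type cannot be told apart from less RNA per cell.

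Osteoblasts build bone matrix, and some of them become buried in it as osteocytes, which stop dividing, extend long processes and secrete regulators of bone turnover. MSC are the stromal cells of bone marrow that can be driven to form bone, fat or cartilage cells, and they proliferate in culture. Reprogramming methods aim to return differentiated cells to such a state.

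The markers of the labelled cell type were checked first. Of the genes that define mature osteocytes, Dmp1, Mepe and Sost were not detected on either array, so these defining markers did not bear out the label, and osteocyte is used below as the labels' name of the pair. Phex, an endopeptidase of bone matrix cells, was detected on the reprogrammed array alone. Its log2 level of 5.25 was near the lowest detected signal there, 5.17. Pdpn, an early osteocyte membrane protein, was high on both arrays, at 12.87 on the differentiated and 11.92 on the reprogrammed array. Osteoblast markers were mostly detected on both: Sp7, the osteoblast transcription factor, read 8.46 and 8.65, and Alpl, the bone phosphatase, 5.60 and 5.60. Ibsp read 5.58 and 5.29, so it and Alpl were near the lowest detected signals of 5.29 and 5.17. Bglap was detected on the differentiated array alone, at 6.56. Runx2 and Spp1 had no probe with their symbol. The arrays are therefore called the differentiated and the reprogrammed array below, after their labels. Stromal markers Pdgfra, Pdgfrb and Prrx1 were detected on both arrays. Of 6 macrophage markers on the array, Csf1r and Lyz2 were detected on both arrays and Adgre1, Fcer1g, Tyrobp and Ptprc on neither. Of the endothelial markers, Pecam1 and Cdh5 were detected on neither array. Kdr and Tek were detected on the differentiated array alone, at 5.30 and 5.35, near the lowest detected signal there of 5.29. Adipoq and Pparg were detected on both arrays, at 7.99 and 8.04 and at 9.75 and 10.03, while the lipid droplet and fatty acid genes Plin1 and Fabp4 were not detected.

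Most genes lay close together on the 2 arrays. Of 9849 genes, 81.9% were within 2-fold, and the 2 arrays correlated with a Pearson r of 0.913 over the 17707 probes, as a description across probes of 2 arrays. At least 2-fold higher on the reprogrammed array were 727 genes (7.38%), and at least 2-fold lower were 1059 (10.8%). These counts use the measured signals, also where a gene was not detected on 1 of the arrays. These counts were 309 and 470 without background correction, and 533 and 1548 when the arrays were scaled to their 75th percentile in place of quantile normalisation. The lower side also reached further: 227 genes were at least 4-fold lower against 91 at least 4-fold higher, and 31 were at least 16-fold lower against 5 at least 16-fold higher. Each gene here is its brightest probe, and over all probes, those without a gene symbol included, 1725 were at least 2-fold higher and 1583 lower. In genes with more than 1 detected probe, the median change was -0.07 over the 3770 brightest probes and 0.21 over the 5541 others. Of the 727 higher genes, 180 were detected on the reprogrammed array alone, and of the 1059 lower genes, 253 on the differentiated array alone. Set against the lowest signal of a detected probe in place of the measured one, 86 of these 180 and 113 of these 253 were under 2-fold, and the genes detected on both arrays alone gave 547 higher and 806 lower. Another 317 probes without a gene symbol were at least 2-fold higher and 173 at least 2-fold lower.

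The 2 MSC arrays, which carry 1 label, were compared in the same way. MSC 2 differed from MSC 1 by at least 2-fold in 773 genes higher (8.15%) and 891 lower (9.4%) of 9481. The median absolute change was 0.488 on the log2 scale in the osteocyte pair and 0.444 between the MSC arrays. The shares were larger in the other lineages, at 18.1% higher and 19% lower in the adipocyte pair and 19.2% higher and 20.9% lower in the chondrocyte pair. Across the 9849 genes, the change in the osteocyte pair correlated with MSC 2 minus MSC 1 at a Pearson r of 0.326 and a Spearman rho of 0.335. A share of genes past 2-fold of this size was therefore also found between 2 arrays of 1 group.

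**Figure D1:**
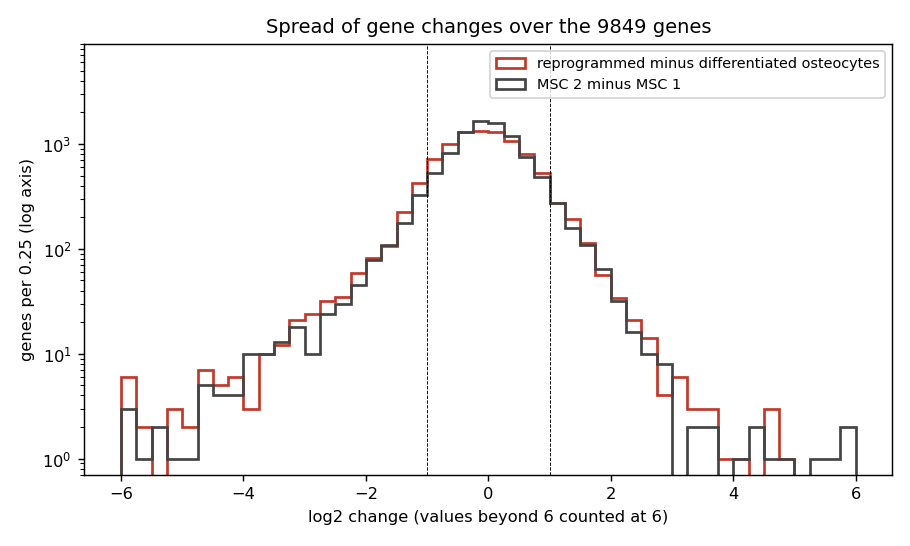
Number of genes (log axis) by log2 change, for reprogrammed minus differentiated osteocytes (red) and for MSC 2 minus MSC 1 (grey), over the same 9849 genes; dashed lines mark 2-fold. The 2 outlines lie close together over most of their range, with the osteocyte pair at 1059 and 727 genes past 2-fold lower and higher.

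Among genes detected on both arrays, the largest difference upwards was in Selp, the adhesion receptor P-selectin. Selp read 5.61 on the differentiated and 9.80 on the reprogrammed array, 18.2-fold higher. On the scale of the 4 arrays, both MSC arrays lay within 1 log2 unit of the reprogrammed array, at 9.63 and 11.08 against 10.21. All MSC levels below are log2 levels on that scale, and all other levels are on the scale of the pair unless said. Cemip, which takes part in hyaluronan breakdown, was 15.3-fold higher, from 5.99 to 9.92. Pip5k1b, a lipid kinase, was 10.3-fold higher, from 5.58 to 8.95, and Rgs4, an inhibitor of G protein signalling, 9.16-fold, from 6.06 to 9.25. The chemokine Ccl2, which draws monocytes, was 8.90-fold higher, from 5.36 to 8.51. All of these had both MSC levels at least 1 log2 unit above the differentiated array.

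The remaining genes by this rule had varied roles. Col1a1, the main chain of bone collagen, read 8.21 and 11.32, 8.67-fold higher. The Notch-like protein Dlk1, which holds back fat cell differentiation, read 8.55 and 11.58, 8.15-fold higher. The methyltransferase Inmt was 8.55-fold higher, the neuronal protein gene Nrep 6.96-fold, the chemokine gene Ccl9 6.66-fold, the proteoglycan gene Esm1 6.58-fold, Ttyh3 6.45-fold and the elastic fibre gene Emilin1 6.12-fold. The MSC arrays disagreed on some of these genes. Inmt was at 10.83 on MSC 1 and 5.39 on MSC 2, and Dlk1 at 10.22 and 8.39, so for both genes 1 MSC array sat near or below the differentiated level. A probe annotated to Eno1b, 7.01-fold higher, belongs to a near copy of the enolase gene Eno1, from which its signal cannot be told apart.

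Genes detected on the reprogrammed array alone are given as lower bounds, set against the lowest signal among detected probes or the probe's own signal where that is higher. Tnc, the matrix protein tenascin C, was at least 27.0-fold higher, with measured log2 levels of 5.19 and 10.05, although its 4 probes ranged from 0.70 to 4.88. Col2a1, the cartilage collagen, was at least 19-fold higher, with 4.91 and 9.54, and all 3 of its probes read over 4 log2 units higher. The retinoic acid binding protein gene Crabp1 was at least 15.2-fold higher, with 4.56 and 9.22. Tgfbi, a matrix protein induced by TGF-beta, was at least 14.3-fold higher and Sprr1a, a cornified envelope protein, at least 13-fold. The others by the same rule were Sdc3 (at least 8.65-fold), Aoc3 (8.42-fold), Galnt18 (8.24-fold), the Wnt inhibitor Sfrp4 (7.31-fold) and the spindle motor Kif11 (6.52-fold). For each of these 10 genes, both MSC arrays read at least 1 log2 unit above the differentiated array.

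The largest differences were downwards, and several were in enzymes of retinal, steroid and foreign compound metabolism. Aldh1a7 read 12.29 on the differentiated array and was not detected on the reprogrammed array, at least 139-fold lower. Its close paralog Aldh1a1, which makes retinoic acid from retinal, read 11.19 and 5.28, 60.2-fold lower; near-identical stretches of the 2 genes could share signal. The protease inhibitor gene Serpina3n was at least 118-fold lower, from 12.05, and the sulfotransferase gene Sult1a1 at least 111-fold, from 11.96. Hsd11b1, which regenerates active glucocorticoid, was 22.8-fold lower, from 10.41 to 5.89, on all 3 of its probes, and the flavin monooxygenase gene Fmo1 23.1-fold, from 13.29 to 8.76.

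Receptors, adhesion proteins and guidance cues made up much of the rest. Ramp2, a partner of the calcitonin receptor-like receptor, was 45.3-fold lower, from 11.68 to 6.18. The ferritin receptor gene Scara5 was 34.9-fold lower, from 12.64 to 7.51, but MSC 1 and MSC 2 stood at 10.85 and 4.74, on either side of the reprogrammed level. The Robo ligands Slit3 and Slit2 were 25.8-fold and 22.9-fold lower, from 9.88 to 5.20 and from 9.97 to 5.45. Vldlr was 22.1-fold lower, the complement gene C2 20.9-fold, Ccdc3 20.4-fold, Mdfic 20.3-fold and the focal adhesion gene Lims2 20.2-fold. Amy2a5, a pancreatic amylase gene with near-identical copies, was 27.8-fold lower. Detected on the differentiated array alone were also Cldn11 (at least 72.1-fold lower), Msln (35.4-fold), Itgbl1 (31.2-fold), Fam107a (29.8-fold), Spon1 (20.2-fold), Cldn10 (19.98-fold) and Lbp (15.6-fold). In all of these, from Cldn11 to Lbp, both MSC arrays read within 1 log2 unit of the reprogrammed array.

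**Figure D2:**
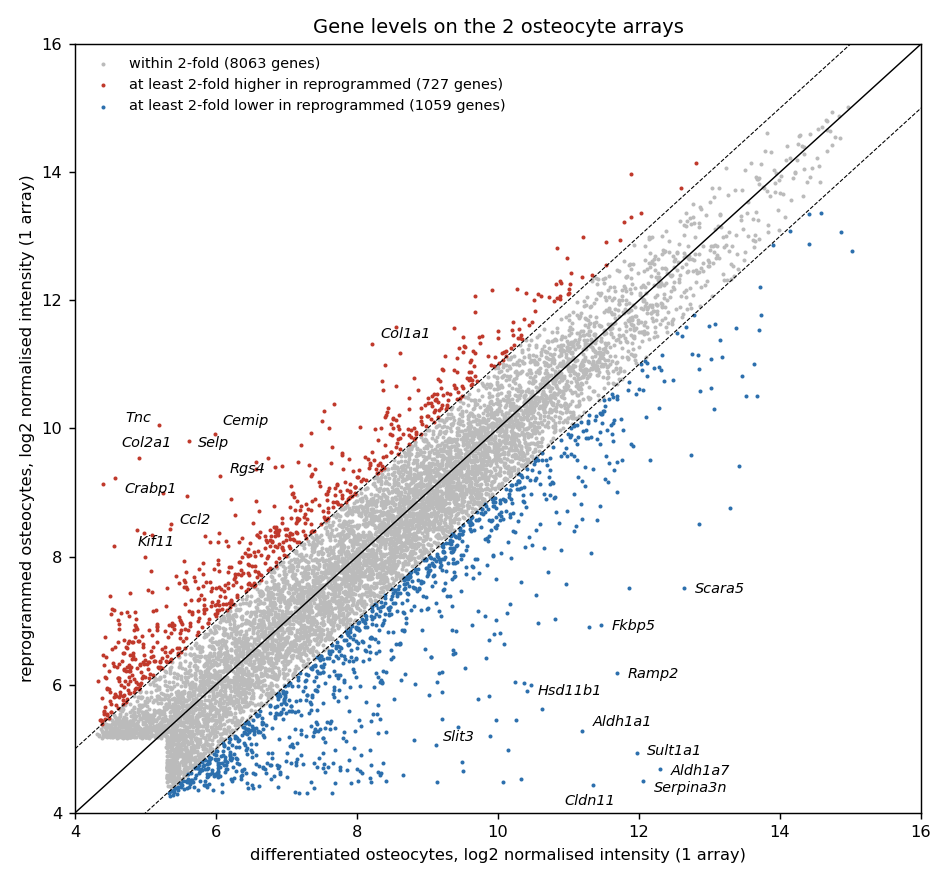
Log2 normalised intensity of 9849 genes on the differentiated (x axis) and reprogrammed (y axis) array, 1 array each; the solid line is equality, the dashed lines 2-fold, and colour marks genes at least 2-fold higher (red, 727) or lower (blue, 1059) that were detected on the higher side. Scara5 and Aldh1a7 lie far below the line and Selp and Tnc far above it.

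Genes of mitosis and the spindle were higher together. Of 46 listed genes, 35 were measured, and 30 were at least 2-fold higher (85.7%, beside 7.38% of all genes) and none lower. The median change was 1.56, beside -0.09 over all genes. Kif11, the motor that separates spindle poles, was not detected on the differentiated array and read 8.00 on the reprogrammed array. Top2a, which untangles chromosomes, read 7.21 and 9.74, and the inhibitor of apoptosis and chromosomal passenger gene Birc5 read 7.64 and 9.71, on 3 probes that each read over 2 log2 units higher. The spindle gene Ckap2l was at least 5.56-fold higher and the kinetochore gene Cenph at least 3.51-fold, both detected on the reprogrammed array alone. The 5 measured genes under 2-fold were Nusap1, Incenp, Spc24, Cenpf and Kif23, with changes from 0.34 to 0.99. The list's median level on the 4-array scale was 7.21 on the differentiated, 8.70 on the reprogrammed, 8.05 on the MSC 1 and 9.76 on the MSC 2 array, and its median change was 1.59 for MSC 2 minus MSC 1. MSC 2 was nearer the reprogrammed than the differentiated level for all 30 of these genes, and MSC 1 for 26.

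Replication genes lay in the same direction. Of 36 measured genes of DNA replication and S phase, 18 were at least 2-fold higher (50%, beside 7.38% of all genes) and none lower. The median change was 1.03. Pclaf, the clamp-associated factor, read 6.56 and 9.48, and the thymidine kinase gene Tk1 7.16 and 9.47. Of the replicative helicase, Mcm7 was 5.05-fold higher, Mcm3 4.29-fold, Mcm5 3.17-fold and Mcm2 2.34-fold, while Mcm6 and Mcm4 differed by 0.62 and 0.26. E2f1, a transcription factor of S phase entry, differed by -0.60 and Rrm2, of nucleotide synthesis, by -0.26. For these 18 genes the MSC 2 level was nearer the reprogrammed array in all and the MSC 1 level in 11.

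Promoters of the mitosis genes were read because their shared letters let the group be seen at the sequence level. A pair of short elements is known from promoters of late cell cycle genes: the CHR (TTTGAA) and the CCAAT box (CCAAT). Both strands of the RefSeq window from 250 bases before to 50 after each gene's start (GRCm38.p6) were searched. Of the 30 higher genes, 27 had 1 or more windows, 30 in all: 24 (80%) held TTTGAA, 25 (83.3%) held CCAAT, and 21 (70%) held both. Over all 32851 windows in the table the shares were 17.9%, 37.4% and 6.95%, and over the 10319 windows of all genes measured in the pair 11.9%, 37.9% and 4.79%. The whole list of 46 genes, whatever their change, had both in 65.1% of its 43 windows. The 150 bases before the start are shown for 5 of the higher genes, 5′ to 3′ on the gene's strand, with TTTGAA or CCAAT, in either orientation, in capitals.
Kif11, chr19:37376232-37376381, plus strand: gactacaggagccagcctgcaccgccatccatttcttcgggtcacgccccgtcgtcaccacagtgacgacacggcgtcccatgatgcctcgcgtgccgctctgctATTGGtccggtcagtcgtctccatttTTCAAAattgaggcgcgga
Ckap2l, chr2:129297213-129297362, minus strand: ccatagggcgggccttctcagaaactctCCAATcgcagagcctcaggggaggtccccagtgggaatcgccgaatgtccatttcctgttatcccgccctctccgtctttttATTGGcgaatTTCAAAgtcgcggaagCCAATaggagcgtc
Top2a, chr11:99024190-99024339, minus strand: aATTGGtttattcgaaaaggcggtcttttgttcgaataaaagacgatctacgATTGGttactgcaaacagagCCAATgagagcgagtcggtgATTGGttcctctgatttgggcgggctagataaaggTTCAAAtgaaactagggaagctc
Cdk1, chr10:69352913-69353062, minus strand: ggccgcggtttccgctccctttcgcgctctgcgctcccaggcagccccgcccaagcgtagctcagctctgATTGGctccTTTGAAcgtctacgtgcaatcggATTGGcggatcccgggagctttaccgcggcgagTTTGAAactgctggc
Cdc20, chr4:118437344-118437493, minus strand: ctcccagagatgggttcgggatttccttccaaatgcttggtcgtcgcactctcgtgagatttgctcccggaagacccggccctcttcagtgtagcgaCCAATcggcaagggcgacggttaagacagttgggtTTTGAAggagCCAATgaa
Cdk1, the kinase that starts mitosis, was 3.21-fold higher, from 9.51 to 11.19, and Cdc20, which activates the ubiquitin ligase ending it, 3.56-fold higher, from 7.64 to 9.47. A match is a description of these letters and not of binding.

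The windows of the replication genes were searched in the same way. Of the 20 windows of the 18 higher genes, 1 held TTTGAA (5%), 12 held CCAAT (60%) and 5 (25%) held an E2F form, TTTGGCGC or TTTCCCGC, which stood in 514 of all 32851 windows. Over the whole list the share was 27.0%, 10 of 37 windows. Mcm5 and Cdc6 are shown over the same 150 bases, with the E2F forms in capitals.
Mcm5, chr8:75109359-75109508, plus strand: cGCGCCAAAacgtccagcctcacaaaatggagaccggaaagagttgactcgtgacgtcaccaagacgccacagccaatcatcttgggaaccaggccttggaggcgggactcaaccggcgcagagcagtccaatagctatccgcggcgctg
Cdc6, chr11:98908001-98908150, plus strand: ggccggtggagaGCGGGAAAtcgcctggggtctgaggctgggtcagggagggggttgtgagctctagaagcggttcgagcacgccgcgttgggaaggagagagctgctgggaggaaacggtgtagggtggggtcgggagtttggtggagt
Cdc6, which loads the helicase, read 6.13 on the differentiated and 7.55 on the reprogrammed array, 2.69-fold higher. In the windows of all 727 higher genes, TTTGAA stood in 17% and CCAAT in 40.1%, and in those of all 1059 lower genes in 13.8% and 34.7%.

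Canonical histone genes divided by class. Of 27 measured, 11 were at least 2-fold higher (40.7%, beside 7.38% of all genes) and 8 lower (29.6%, beside 10.8%). Of these 11, 4 were detected on the reprogrammed array alone, and 2 of the 4 had a bound under 2-fold. All 5 measured H3 genes and 6 of 8 H2A genes were higher, with class medians of 1.31 and 1.27, led by H3c7 (at least 3.72-fold) and H2ac15 (8.80 to 10.78). All 6 H2B genes were lower, with a median of -1.61, led by H2bc4, which read 11.52 and 9.21. The linker histone gene H1f2 was 4.57-fold lower, from 11.91 to 9.72. Genes of 1 class are near copies of each other, so the probes may share signal and do not count as separate observations. The 8 lower genes were also at least 2-fold lower in the adipocyte and chondrocyte pairs.

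Cell cycle inhibitors went both ways. Of 22 measured brakes and D cyclins, 2 were at least 2-fold higher (9.09%, beside 7.38% of all genes) and 5 lower (22.7%, beside 10.8%), with a median of -0.24 that was 0.04 when each gene took the median of its probes. Cdkn1c, the imprinted inhibitor p57, was 9.02-fold lower, from 9.01 to 5.84, while MSC 1 stood at 5.30 and MSC 2 at 8.65. Trp53inp1, Gadd45g, Cdkn2b and Rb1 were 2.69-fold, 2.25-fold, 2.21-fold and 2.06-fold lower, and Cdk4 and Gadd45a were 2.20-fold and 2.03-fold higher. The p21 gene Cdkn1a differed by -0.89 on its brightest probe, but its 3 probes ran from -0.89 to 0.78, in both directions.

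Genes that respond to glucocorticoid were mostly lower. Glucocorticoids bind a nuclear receptor that turns on genes such as Fkbp5, Tsc22d3, Per1 and Zbtb16 in many tissues. Of 25 measured genes, 20 were at least 2-fold lower (80%, beside 10.8% of all genes) and 2 higher (8%, beside 7.38%). The median was -1.98. Fkbp5, a co-chaperone of the receptor, read 11.46 and 6.93, 23.1-fold lower, with MSC 1 at 7.09 and MSC 2 at 7.60 beside 7.20 on the reprogrammed and 11.92 on the differentiated array. Tsc22d3, the anti-inflammatory gene GILZ, read 13.42 and 9.42, 16.1-fold lower on the brightest of 3 probes. Its MSC levels were 9.88 and 9.70, beside 9.81 on the reprogrammed array. The transcription factor Zbtb16 was at least 6.00-fold lower, the metal-binding gene Mt2 at least 7.10-fold and the glutamine synthetase gene Glul at least 9.16-fold, all 3 detected on the differentiated array alone. The iron-binding protein gene Lcn2 was at least 11.1-fold lower.

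The remaining members of the list differed less. Sgk1, a kinase, was 4.74-fold lower, from 15.02 to 12.77, Per1 3.95-fold, Dusp1 3.79-fold and Mt1 3.49-fold. The lipase inhibitor gene Angptl4 was 2.75-fold higher. Nr3c1, the receptor itself, was detected on the reprogrammed array alone, with a bound of 1.14-fold higher, so that it counts as 2-fold higher by its measured signals only. Between the MSC arrays the list had a median of -0.10 for MSC 2 minus MSC 1. For 18 of the 20 lower genes, both MSC arrays were nearer the reprogrammed level, beside 570 of all 1059 lower genes. A full glucocorticoid response element, AGAACA and TGTTCT set 3 bases apart, was in 3 of all 32851 windows and in 1 of the 25 windows of the 20 lower genes. That window, number 5 of 6 for Sgk1, is shown over the 250 bases before its start with the palindrome in capitals.
Sgk1, chr10:21993640-21993889, plus strand: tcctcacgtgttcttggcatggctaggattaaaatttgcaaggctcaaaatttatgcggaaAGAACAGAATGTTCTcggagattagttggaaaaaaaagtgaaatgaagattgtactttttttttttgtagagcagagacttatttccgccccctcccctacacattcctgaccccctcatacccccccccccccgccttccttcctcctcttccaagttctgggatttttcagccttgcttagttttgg
No match in the other windows says only that these letters are not within them.

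Clock and acute phase genes overlapped with that list. Per1 and Per2, repressors of the circadian clock, were 3.95-fold and 3.59-fold lower and Usp2 3.67-fold, while Nr1d2 was 2.69-fold higher, among 15 clock genes measured. That is 20% of the clock genes lower and 6.67% higher, beside 10.8% and 7.38% of all genes. Of 15 acute phase genes, 9 were at least 2-fold lower (60%, beside 10.8% of all genes) and none higher, with a median of -1.01. Of the 15, 6 were detected on the differentiated array alone, and the median ran from -1.50 to -0.27 over the other settings, the latter among genes detected on both arrays. Beside Serpina3n and Lcn2, which both lists hold, the pattern recognition gene Ptx3 read 10.70 and 7.75, 7.72-fold lower. The cytokine signalling inhibitor Socs3 was 4.79-fold lower and the haptoglobin gene Hp 3.42-fold. MSC 1 and MSC 2 held Ptx3 at 9.86 and 10.13, nearer the differentiated level of 11.14 than the reprogrammed level of 8.07. Of 20 immediate-early genes, Zfp36 was 5.29-fold, Dusp1 3.79-fold and Fos 2.90-fold lower, Egr3 was 2.66-fold higher, and 16 were within 2-fold. That is 15% lower and 5% higher, beside 10.8% and 7.38% of all genes.

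**Figure D3:**
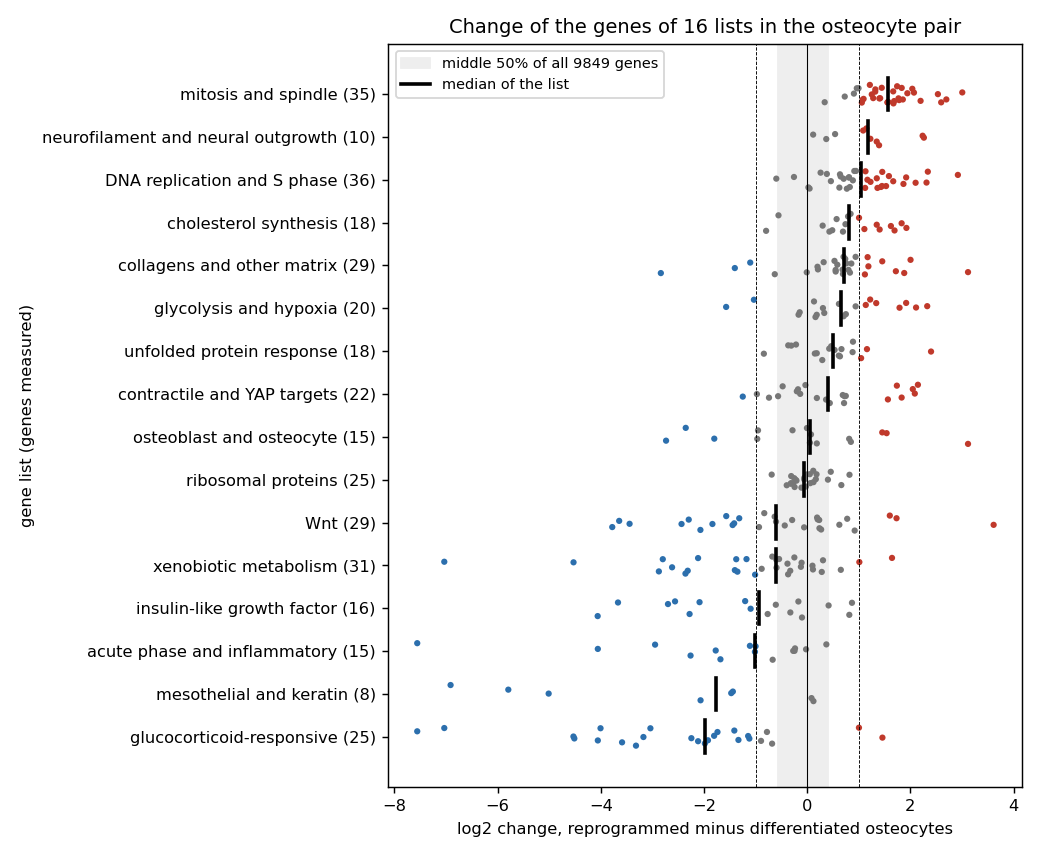
Log2 change of each measured gene (points) in 16 lists, with the list's median as a black bar, dashed lines at 2-fold and the middle 50% of all genes in grey; red and blue mark changes of at least 2-fold. The mitosis list lies almost wholly to the right of zero and the glucocorticoid list almost wholly to the left, while the ribosomal protein genes stay near zero.

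Bone genes went both ways. Of 15 measured osteoblast and osteocyte genes, 3 were at least 2-fold higher (20%, beside 7.38% of all genes) and 3 lower (20%, beside 10.8%). The median was 0.05. The osteocalcin genes, which mark mineralising osteoblasts, were lower: Bglap2 read 8.28 and 5.54, 6.66-fold lower, and Bglap was at least 2.62-fold lower, from 6.56. These 2 genes are near copies. Omd, the small proteoglycan osteomodulin, read 11.18 and 8.82, 5.11-fold lower, with MSC 1 at 10.75 and MSC 2 at 8.01. Higher were both chains of type I collagen, Col1a1 and Col1a2 (10.21 and 11.66), and the mineralisation phosphatase gene Phospho1, 2.90-fold. Sp7, Dlx5 and Tnfrsf11b differed by 0.19, 0.05 and 0.07.

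Structural matrix genes were more often higher, and matrix proteases and inhibitors more often lower, than all genes. Of 29 measured collagens and other matrix genes, 8 were at least 2-fold higher and 3 lower, with a median of 0.70. These shares were 27.6% and 10.3%, beside 7.38% and 10.8% of all genes. Col15a1 was 4.01-fold higher, the collagen lysyl hydroxylase gene Plod2 3.68-fold, Col5a2 3.29-fold (0.40 on the log2 scale as the median of its probes), Col6a2 2.27-fold and the fibronectin gene Fn1 2.25-fold. Dcn, the proteoglycan decorin, was 7.14-fold lower, from 11.40 to 8.56, with MSC 1 at 10.87 and MSC 2 at 5.00. Of 20 proteases and inhibitors, 7 were at least 2-fold lower (35%, beside 10.8% of all genes) and none higher, with a median of -0.51. The stromelysin gene Mmp3 was at least 5.71-fold lower, Timp3, an inhibitor of metalloproteases, 4.16-fold, from 13.17 to 11.12, and Adamts1 and the urokinase gene Plau 3.24-fold and 3.23-fold. Matricellular proteins split, with Tnc, Tgfbi and Thbs1 (3.94-fold) higher and Ccn3 (at least 4.78-fold), Ccn5, Thbs3 and Tnxb lower.

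Contractile genes leaned upwards. Of 22 measured contractile genes and YAP targets, 6 were at least 2-fold higher (27.3%, beside 7.38% of all genes) and 1 lower (4.5%, beside 10.8%). The median was 0.40. Smooth muscle actin Acta2 read 11.89 and 13.97, 4.24-fold higher, with both MSC arrays above 14 on the 4-array scale, at 14.64 and 14.51. Tpm2 was 4.42-fold higher on its brightest probe but differed by 0.31 as the median of its probes. Myl9 was 3.33-fold and Flna 2.96-fold higher, and Actg2 and Tagln, detected on the reprogrammed array alone, at least 3.06-fold and 2.41-fold. Mylk, the myosin light chain kinase, was 2.38-fold lower on its brightest probe and differed by -0.22 as the median of its probes. The YAP targets Ccn1 and Ccn2 differed by -0.20 and -0.56. The neural outgrowth list had 7 of 10 measured genes at least 2-fold higher (70%, beside 7.38% of all genes) and none lower. Of these 7, 2 were detected on 1 array only and had a bound under 2-fold. The list's median was 1.18, and it ran from 0.17 to 1.49 over the other settings. The neurofilament gene Nefm was 4.79-fold higher and Nrn1 4.71-fold, and 14 further genes of that list were not detected. Ncam1, 2.54-fold higher on its brightest probe, had probes in both directions.

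The pathways of secreted signals were read list by list. Of 29 measured Wnt pathway genes, 11 were at least 2-fold lower (37.9%, beside 10.8% of all genes) and 3 higher (10.3%, beside 7.38%). Porcn, the acyltransferase that Wnt proteins need for secretion, read 10.81 and 7.03, 13.7-fold lower. The feedback gene Axin2 was at least 8.08-fold lower, and the ligands Wnt10a, Wnt2, Wnt7b and Wnt4 at least 7.44-fold, 5.17-fold, 4.07-fold and 3.56-fold, each detected on the differentiated array alone. On the higher side were Sfrp4, Rspo2 (1.73 on the log2 scale) and Wnt10b (1.60). The list's median was -0.60, and it was 0.19 among genes detected on both arrays. For all 11 lower genes, both MSC arrays were nearer the reprogrammed level, beside 570 of all 1059 lower genes.

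The insulin-like growth factor list had 8 of 16 measured genes at least 2-fold lower (50%, beside 10.8% of all genes) and none higher. Its median was -0.93. The binding proteins Igfbp5 and Igfbp3, which hold the ligands outside cells, were at least 15.4-fold and 12.4-fold lower, and Igfbp4 was 4.86-fold lower, from 12.86 to 10.58. The ligand Igf2 was 4.25-fold lower, from 10.59 to 8.51, but stood at 11.56 on MSC 1 and 7.66 on MSC 2. Stc2 was 6.49-fold lower and the adaptor Irs2 5.90-fold.

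BMP and TGF-beta genes were divided, with 5 of 24 at least 2-fold higher (20.8%, beside 7.38% of all genes) and 6 lower (25%, beside 10.8%). The inhibitor of differentiation gene Id4 was at least 9.02-fold lower and Id1, a direct BMP target, 3.94-fold, from 9.84 to 7.87. The BMP and activin antagonists Chrd and Fst were 8.88-fold and 4.87-fold lower, and the ligand Bmp6 at least 2.71-fold. Fstl1, Fstl3 and Tgfb3 were 3.92-fold, 2.64-fold and 2.58-fold higher. In the retinoid list, the synthesis genes Aldh1a1 and Aldh1a7 and the retinol transporter Stra6 (at least 5.74-fold) were lower, and Crabp1 and the receptor Rara (3.02-fold) higher. Of 16 measured genes of fibroblast growth factor signalling, 2 were at least 2-fold higher, the ligand Fgf7 (1.38 on the log2 scale) and the transcription factor Etv1 (1.15), and 2 lower, the receptor Fgfr2 (9.62-fold, from 9.53 to 6.27) and the ligand Fgf18, detected on the differentiated array alone with a bound of 1.49-fold. Of 13 PDGF and VEGF genes, 1 was higher, Pdgfc (1.29), and 3 lower, the lymphatic growth factors Vegfd (6.83-fold) and Vegfc (3.35-fold) and the receptor Flt1, with a bound of 1.62-fold. The share was 12.5% each way for the fibroblast growth factor genes. It was 7.69% higher and 23.1% lower for the PDGF and VEGF genes, beside 7.38% and 10.8% of all genes.

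Metabolic lists differed in direction. Of 20 measured glycolysis and hypoxia genes, 7 were at least 2-fold higher (35%, beside 7.38% of all genes) and 2 lower (10%, beside 10.8%). The median was 0.66. Pdk1 was 5.01-fold higher, Pgam1 4.31-fold, Aldoa 3.78-fold and Ldha 3.46-fold, the last from 11.20 to 12.99. The hypoxia-responsive genes P4ha2 and Ndrg1 were 2.97-fold and 2.05-fold lower. MSC 2 was nearer the reprogrammed array for all 7 higher genes, and MSC 1 for 1. Cholesterol synthesis had 8 of 18 measured genes at least 2-fold higher (44.4%, beside 7.38% of all genes) and none lower, with a median of 0.82. Sqle, an oxygen-dependent step, read 9.50 and 11.43, 3.79-fold higher, Cyp51 was 3.55-fold, Fdps 3.23-fold and Msmo1 3.08-fold higher. MSC 2 was nearer the reprogrammed array for 7 of these 8 genes, and MSC 1 for 1.

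Xenobiotic enzymes were at least 2-fold lower in 13 of 31 measured genes (41.9%, beside 10.8% of all genes) and higher in 2 (6.45%, beside 7.38%). The median was -0.60. Beside Sult1a1 and Fmo1, the dehydrogenase Adh1 and the carboxylesterase Ces1d were at least 5.36-fold and 3.86-fold lower, Adh7 6.14-fold, Cyp2d22 5.13-fold and Gsta3 4.98-fold. Gstt1 was 3.12-fold higher. Of the endoplasmic reticulum stress genes, 3 of 18 were at least 2-fold higher (16.7%, beside 7.38% of all genes) and none lower. The chaperone gene Calr read 9.67 and 12.07, 5.28-fold higher, and Hspa5 differed by 0.89. The respiratory chain had 1 of 36 genes at least 2-fold higher, Sdhd (2.78%, beside 7.38% of all genes), and none lower (0%, beside 10.8%). Its median was 0.07. None of 25 ribosomal protein genes was at least 2-fold higher or lower (0%, beside 7.38% and 10.8% of all genes), with a median of -0.06. Among 14 housekeeping genes, Actb, Gapdh and Hprt differed by -0.07, 0.71 and -0.25. Rpl13a and Pgk1 were 2.53-fold and 2.33-fold higher (14.3%, beside 7.38% of all genes), and none was at least 2-fold lower (0%, beside 10.8%). As the median of its probes, Pgk1 differed by 0.40 and Hprt by 0.32.

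Epithelial and mesothelial genes were mostly lower. Of 8 measured, 6 were at least 2-fold lower (75%, beside 10.8% of all genes) and none higher. The 6 were Cldn11, Msln, the tight junction gene Cldn1 (10.63 to 5.62), Bnc1, Krt7 and Cdh1. The keratins Krt8, Krt18 and Krt19 and Epcam were not detected on either array. Cldn11 differed by -0.46 in the adipocyte and -0.04 in the chondrocyte pair and Msln by 0.42 and 0.17, on the 6-array scale, beside -7.42 and -6.27 in the osteocyte pair. The median of the list was -1.77, and it was 0.08 among the 3 genes detected on both arrays. The part of other cell types in this was not tested.

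Chemokine genes were at least 2-fold higher in 5 of 13 measured (38.5%, beside 7.38% of all genes) and lower in 1 (7.69%, beside 10.8%). After Ccl2 and Ccl9, these were Cx3cl1 (3.12-fold), Ccl7 (2.25-fold) and the scavenging receptor Ackr4 (2.19-fold), while Ccl8, the 1 lower gene, had a bound of 1.52-fold, so that it counts as lower by its measured signals only. Of 28 interferon-stimulated genes, 1 was at least 2-fold higher (3.57%, beside 7.38% of all genes) and 4 lower (14.3%, beside 10.8%), with a median of -0.25, in a list whose median differed by -3.08 between the MSC arrays. Ifi207 was 10.8-fold and Oas2 5.97-fold lower and Isg15 2.98-fold higher. The MSC surface marker Nt5e (CD73) was 3.92-fold higher, Cd34 had a bound of 1.60-fold lower, and Thy1 was not detected, while Cd44, Vcam1 and Itgb1 differed by 0.82, -0.18 and -0.04. Of 13 imprinted genes, 4 were at least 2-fold higher by their measured signals and 3 lower, with a median of -0.42. These shares were 30.8% and 23.1%, beside 7.38% and 10.8% of all genes. The higher ones were Dlk1, Gnas (1.34 on the log2 scale, and 0.0063 as the median of its probes), Mest, at least 3.33-fold, and Peg10, whose bound was 1.22-fold. The lower ones were Cdkn1c, Dcn and Igf2.

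The undifferentiated MSC arrays, which took no part in choosing the genes, lay mostly nearer the reprogrammed array. For 515 of the 727 higher genes (70.8%, exact 95% interval 67.4% to 74.1%) the MSC mean was nearer the reprogrammed than the differentiated level, and for 832 of the 1059 lower genes (78.6%, 76.0% to 81.0%). The intervals cover the counting of genes only, and genes are not independent replicates. On the 4-array scale the higher genes had a median level of 6.94 on the differentiated, 8.60 on the reprogrammed, 7.86 on the MSC 1 and 8.56 on the MSC 2 array, and the lower genes 8.69, 6.89, 7.65 and 7.00. The 2 MSC arrays gave different shares: with MSC 2 alone 74.3% of higher and 83.0% of lower genes were nearer the reprogrammed array, and with MSC 1 alone 52.8% and 61.1%. Lists differed too. The MSC mean was nearer the reprogrammed array for all 30 higher mitosis genes, but for 3 of 8 higher collagens and other matrix genes. That held for 0 of 3 higher endoplasmic reticulum stress genes and 0 of 4 higher imprinted genes.

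The agreement of both MSC arrays was narrower. Both lay within 1 log2 unit of the reprogrammed level for 382 of the higher genes (52.5%) and 709 of the lower genes, and both lay at least 1 log2 unit away from the differentiated level, in the direction of the reprogrammed one, for 208 (28.6%) and 428 (40.4%). The MSC arrays were themselves at least 2-fold apart in 296 of the higher genes (40.7%) and 288 of the lower (27.2%). The reprogrammed level passed both MSC arrays by over 1 log2 unit in 68 higher and 25 lower genes. Over all 9849 genes, the median distance from the MSC mean was 0.313 for the reprogrammed and 0.373 for the differentiated array. The osteocyte arrays had lower mean deposited intensities, 324 and 413, than the other 8 arrays, whose means all lay from 538.19 to 538.28. Those 8 arrays may already have been scaled to each other before deposit, which was not tested. The distance of the osteocyte arrays from the MSC arrays also crosses this difference in scale, and the 2 cannot be told apart.

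**Figure D4:**
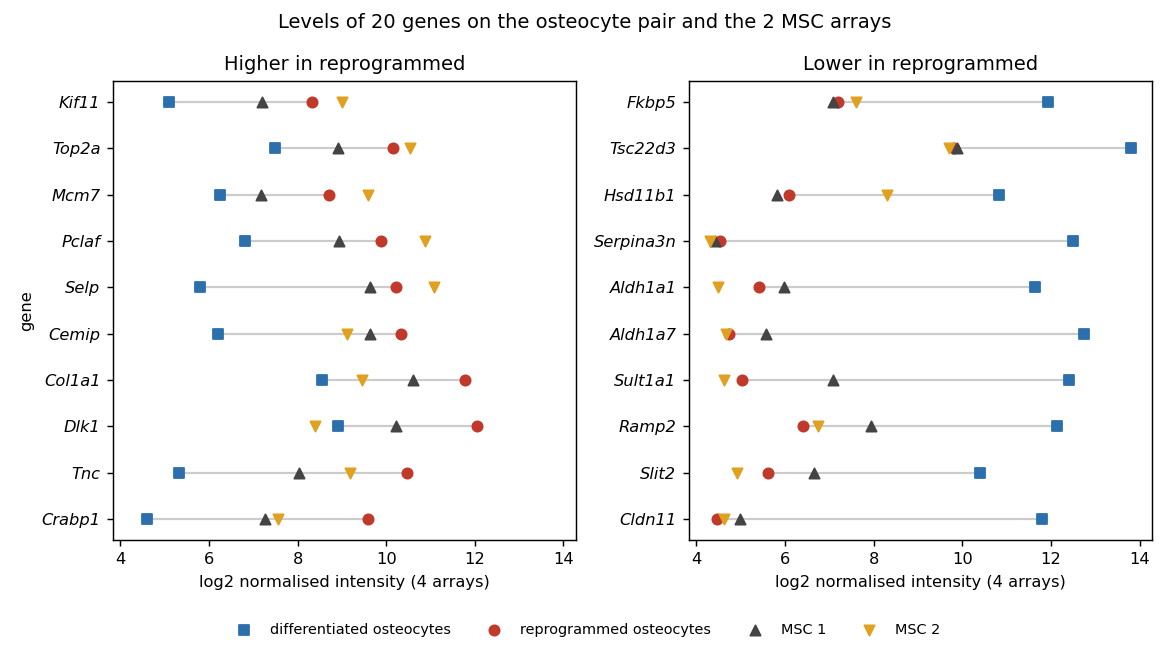
Log2 normalised intensity of 10 genes higher (left) and 10 lower (right) in the reprogrammed osteocytes, on the differentiated osteocyte, reprogrammed osteocyte, MSC 1 and MSC 2 arrays normalised together; each marker is 1 array and the grey line joins the osteocyte pair. For Fkbp5, Tsc22d3, Serpina3n and Cldn11 the 2 MSC arrays sit with the reprogrammed array, while Dlk1 on MSC 2 lies below the differentiated level.

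The other 2 lineages, on arrays that the osteocyte pair does not share, were set beside it. Their arrays had mean deposited intensities near 538, beside 324 and 413 in the osteocyte pair. Lineage and this difference in scale cannot be told apart in any comparison of the pairs here and below. Of the 727 higher genes, 437 (60.1%) were at least 2-fold higher in the adipocyte pair on the 6-array scale, 340 (46.8%) in the chondrocyte pair and 264 (36.3%) in both, where 16.7%, 18.9% and 7.97% of all 9849 genes were. Of the 1059 lower genes, 432 (40.8%) were at least 2-fold lower in the adipocyte pair, 436 (41.2%) in the chondrocyte pair and 236 (22.3%) in both, beside 15.5%, 14.9% and 5.42% of all genes. Across the 9849 genes the change in the osteocyte pair correlated with that in the adipocyte pair at r = 0.442 and with that in the chondrocyte pair at r = 0.386, as a description, since the genes of 1 array share its depth and scale.

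Some lists had the same direction in the 3 pairs; differences in their size were not tested. All 30 mitosis genes and all 18 replication genes that were higher in the osteocyte pair were at least 2-fold higher in both other pairs, and the mitosis median was 1.67 in the osteocyte pair beside 4.25 in the adipocyte and 4.22 in the chondrocyte pair. Of the 20 lower glucocorticoid-responsive genes, 16 were lower in the adipocyte pair, 15 in the chondrocyte pair and 14 in both, and the list medians were -1.92, -1.71 and -1.63. Cholesterol synthesis went apart, with medians of 0.87 in the osteocyte, -0.43 in the adipocyte and -0.44 in the chondrocyte pair. Of its 8 higher genes, 7 were at least 2-fold higher in neither other pair, beside 214 of all 727 higher genes. Matrix proteases had medians of -0.45, 1.66 and -1.20.

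**Figure D5:**
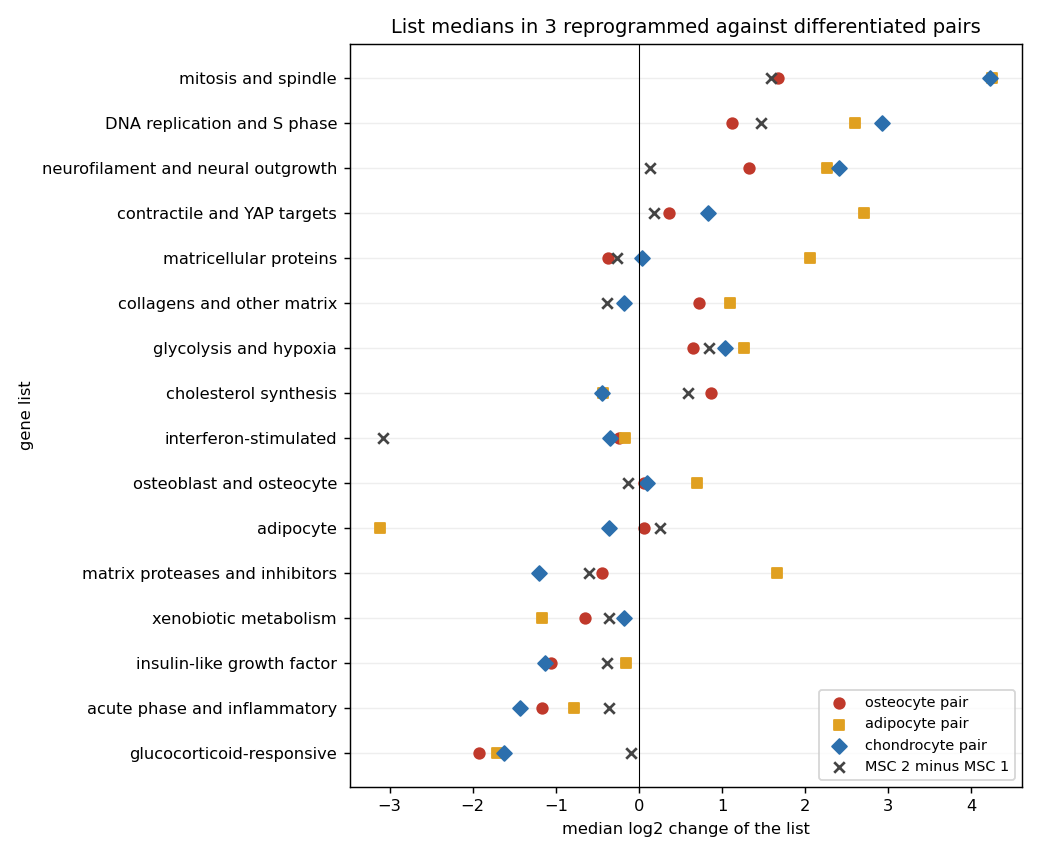
Median log2 change of 16 gene lists in the osteocyte, adipocyte and chondrocyte pairs, on the 6 arrays normalised together, and for MSC 2 minus MSC 1 (crosses). The glucocorticoid-responsive medians of the 3 pairs lie close together at -1.92, -1.71 and -1.63, and the cholesterol synthesis median is above zero in the osteocyte pair alone among the 3 pairs.

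In all, 31 genes went at least 2-fold one way in the osteocyte pair and at least 2-fold the other way in both other pairs. The 7 higher in the osteocyte pair were 0.963% of its 727 higher genes, where 5.42% of all 9849 genes were lower in both other pairs. The 24 lower were 2.27% of its 1059 lower genes, where 7.97% of all genes were higher in both other pairs. Both shares were thus below those of all genes. On the 6-array scale, Cdkn1c differed by -3.39 in the osteocyte, 2.16 in the adipocyte and 2.12 in the chondrocyte pair. Klf5, a transcription factor of growing cells, differed by -3.33, 1.22 and 2.68, Asb4 by -3.56, 1.54 and 3.79, and Aif1l by -3.35, 3.82 and 2.05. The proliferin genes Prl2c2, Prl2c3 and Prl2c4, hormone-like growth factors that are near copies of each other, were from 2.20-fold to 2.74-fold lower in the osteocyte pair and stood at 7.81, 8.09 and 7.58 on MSC 1 and at 13.82, 13.61 and 13.25 on MSC 2. On the higher side, the mevalonate gene Mvd differed by 1.43, -1.27 and -1.08 and Pmvk by 1.18, -1.23 and -1.48 in the osteocyte, adipocyte and chondrocyte pairs.

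The difference between the osteocyte change and the mean change of the other 2 pairs was tested with limma over 17728 probes of 6 arrays, with 1 residual degree of freedom. The spread behind it is the difference between the adipocyte and chondrocyte changes, so the SE holds no error between replicates. No probe passed an adjusted p of 0.05 (0% called in either direction). The smallest unadjusted p-values, each with an adjusted p of 1.00 from limma, were for Gsta3, with a difference of 6.01 ± 0.886 (SE) on the log2 scale, Saa3, Sort1, Mmp13, Lrrc8a and Gadd45a, and for Cdkn1c, at -5.53 ± 0.853 (SE), Aif1l, Dlx2, Serpinb6b, Asb4 and Klf5. A positive difference need not be a rise. Gsta3 differed by -2.51, -8.87 and -8.17 and Saa3 by -1.28, -6.08 and -7.42 in the osteocyte, adipocyte and chondrocyte pairs. In the osteocyte pair Lrrc8a differed by -0.54, and Sort1, Mmp13 and Gadd45a by 0.24, 0.76 and 1.11, on the probes of this fit. A lack of called probes does not show that the 3 pairs act alike.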

How the data were processed

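RNA of 10 samples was read on Illumina mouse arrays, 1 array a sample, and the deposited scanner table gives a summarised probe intensity and a detection p-value per array, per the file headers. A deposited table of log2-like processed values follows the scanner table by probe for the osteocyte pair and served as an alternative; its 8 other columns of per-sample values were not used, and its scale and centring are not given in the sources used here. From the deposited intensity values, background was corrected with normexp from the detection p-values (offset 16), and arrays were quantile normalised and put on the log2 scale with neqc of limma 3.58.1 in R 4.3.3, over the pair, over 4 arrays (the pair and both MSC) or over the 6 arrays of the 3 lineages. Tables were made in Python 3.11.15 with pandas 2.3.3 and SciPy 1.17.1. A gene took its brightest detected probe; symbols came from the platform annotation, updated through RefSeq. A gene detected on 1 array only was given as a bound against the lowest signal of a detected probe.

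Genes were described at 2-fold, with no test. The interaction with lineage was fitted with limma over 6 arrays and adjusted by Benjamini-Hochberg, and the script was tested on simulated data. Members, gene lists and the naming rule were chosen with earlier results of these data known. The rule named the 15 largest differences per direction among genes detected on both arrays, the 10 highest per direction detected on 1 array, up to 8 members a list, and the 6 smallest p-values per direction of the interaction. Markers, the mitosis genes under 2-fold, and Mcm2, Mcm4, Mcm6, E2f1, Rrm2, Cdk1, Cdc20, Cdc6, Zbtb16, Sgk1, Mt1, Angptl4, Nr3c1, Dlx5, Tnfrsf11b, Fn1, Ccn1, Ccn2, Rspo2, Wnt10b, Ndrg1, Gstt1, Actb, Vcam1 and Itgb1 were named beside it after their values were seen. With 1 array a side, the number of arrays limits the precision.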

Additional observations from a re-analysis of the deposited data

How the results depend on the processing

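The count of genes at least 2-fold apart depended on the background step. It was 727 higher and 1059 lower as reported, 309 and 470 without background correction, and 477 and 680 with an offset of 50. Scaling to the 75th percentile gave 533 higher and 1548 lower and moved the median of all genes from -0.09 to -0.27. The share of genes whose MSC mean lay nearer the reprogrammed array was 70.8% of the higher genes, 75.2% under percentile scaling, and from 52.8% to 74.3% when either MSC array was left out. For the lower genes it was 78.6%, and 88.9% without background correction, 86.0% with an offset of 50, 64.7% under percentile scaling, 75.7% among genes detected on both arrays, and from 61.1% to 83.0% when either MSC array was left out. Directions turned for the mesothelial list (from -1.77 to 0.083 among genes detected on both arrays), for Ncam1 (-0.16 as the median of its probes), and for Ttn, which was -1.09 as reported and 0.22 without background correction, 0.43 under percentile scaling and 1.34 in the authors' deposited table; the cause was not tested. Of 263 named genes at least 2-fold apart, 261 kept their sign in every setting run and 91 were under 2-fold in 1 or more. List medians also changed sign, 17 of 50 lists in 1 or more settings, among them the cell cycle brakes (0.04 as the median of probes), the Wnt list (0.19), canonical histones (-0.18) and cartilage (-0.75) among genes detected on both arrays, and the respiratory chain (-0.24) and bone genes (-0.04) under percentile scaling. The interaction gave 0 calls in every setting run, and leaving out a lineage left no residual degrees of freedom, so it was not run as a test. No paired analysis was possible because the 2 osteocyte groups hold 1 array each and share fewer than 2 replicate numbers.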
